A study of Mus musculus with 24 samples.

Results

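The transition proteins and the main protamines are small basic proteins of the spermatid nucleus, where histones give way to protamines. Followed here were 5 genes, *Tnp1*, *Tnp2*, *Prm1*, *Prm2* and *Prm3*, chosen by symbol out of the 24456 genes listed in each count table. All 5 passed the filter on low counts over the 24 libraries. RNA was sequenced from the testes of homozygous *Atad2* knockout (KO) and wild-type (WT) mice during the first spermatogenic wave, at postnatal days 20, 22, 24 and 26. Days 20 and 22 had 4 libraries of each genotype, and days 24 and 26 had 2. ATAD2 is a bromodomain protein with an AAA+ ATPase domain, and the study asked how its loss affects transcription while the first haploid cells appear. In the KO allele a *lacZ* reporter cassette is joined to the upstream exons of *Atad2*, and a Cre recombinase driven by the ubiquitous CMV promoter had removed the *neo* cassette and one downstream exon. The WT mice carry the unmodified *Atad2* gene. The Cre was ubiquitous, so the allele is not a germ cell model, and the paper shows loss of the protein in testis extracts. The labels do not say whether WT mice were littermates or how many testes went into a library. The labels give whole testis as the source, although their extraction note also names a purification of germ cell fractions. The libraries are named by genotype, day and replicate, as in KO_d22_2.

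In the maturing spermatid, histones give way to the protamines PRM1 and PRM2, and the transition proteins TNP1 and TNP2 act in between. These protamines are arginine-rich and pack the sperm genome into a compact toroidal form. The paper proposes that transition proteins do not displace histones themselves but load onto opened nucleosomes and control protamine assembly. The transcripts are made in round spermatids by promoters that depend on the activator CREM, are stored without translation, and are translated days later in elongating spermatids. PRM2 is made as a precursor that is cut to its mature form. *Prm3* lies between *Tnp2* and *Prm2* in the same gene cluster but encodes an acidic protein that is found in the cytoplasm. RNA levels therefore describe the transcription and storage of these messages, not the proteins in the nucleus.

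*Tnp2*, *Prm3*, *Prm2* and *Prm1* lie within 8951 bases of one another on chromosome 16, all on the minus strand (GENCODE M21 models on GRCm38, the build that the authors call mm10). *Tnp2* occupies chr16:10787936-10788660, *Prm3* chr16:10790505-10790914, *Prm2* chr16:10791380-10792105 and *Prm1* chr16:10796326-10796886. *Tnp1* is separate, at chr1:73015074-73015909, also on the minus strand. *Prm3* has 1 exon and the others have 2 each. *Prm1* and *Prm2* also have longer models that begin upstream, and the longer *Prm1* model is overlapped by the antisense gene *Gm46563* and the pseudogene *Gm10343*, neither of which was listed in the count tables. The neighbours outside the cluster are *Socs1* and *Clec16a* on one side and *Rmi2* on the other.

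The promoter stretches are shown because the 5 genes rose over the same days. They come from the RefSeq promoter table on GRCm38.p6 and are written 5′ to 3′ on the strand of the gene. Each ends just before the GENCODE start of its gene, except that the last 7 bases of the *Prm1* stretch lie in its first exon. Capitals mark matches to TATANNA, a pattern of the TATA-box kind, or to TGANNTCA, a pattern related to the cAMP response element. The stretches are chr1:73015910-73016039 for *Tnp1*, chr16:10788661-10788790 for *Tnp2*, chr16:10796880-10797016 for *Prm1*, chr16:10792106-10792235 for *Prm2* and chr16:10790915-10791044 for *Prm3*.
Tnp1: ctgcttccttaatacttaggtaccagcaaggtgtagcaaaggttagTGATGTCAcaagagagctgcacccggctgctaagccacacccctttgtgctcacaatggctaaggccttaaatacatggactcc
Tnp2: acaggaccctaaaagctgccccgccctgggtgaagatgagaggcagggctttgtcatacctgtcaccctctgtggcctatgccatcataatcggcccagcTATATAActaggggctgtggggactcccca
Prm1: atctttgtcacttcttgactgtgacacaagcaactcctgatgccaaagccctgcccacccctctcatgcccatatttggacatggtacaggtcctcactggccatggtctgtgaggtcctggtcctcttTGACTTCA
Prm2: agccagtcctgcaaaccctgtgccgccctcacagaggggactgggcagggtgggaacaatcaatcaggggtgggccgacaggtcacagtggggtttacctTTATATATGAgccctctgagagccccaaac
Prm3: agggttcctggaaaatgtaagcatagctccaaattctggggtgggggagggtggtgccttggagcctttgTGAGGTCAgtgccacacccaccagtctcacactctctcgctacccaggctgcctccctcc

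Motifs were searched on both strands of the 250 bases before each RefSeq start. TGANNTCA occurred in 3 of the 5 genes, as TGATGTCA in *Tnp1*, TGACTTCA in *Prm1* and TGAGGTCA in *Prm3*, and in 11.9% of 32851 promoters. TATANNA occurred in *Tnp2*, *Prm1* and *Prm2*, and in 20.6% of promoters. In *Prm2* the matches on the 2 strands overlap, and both are within the capitals. The *Prm1* match, TATAAGA, lies 26 to 32 bases before the RefSeq start. GENCODE places the *Prm1* start 63 bases further upstream, so this match is outside the stretch shown. TGACGT, the core of the cAMP response element, occurred in none of the 5 windows and in 6.47% of promoters, and CCAAT occurred in *Prm3* alone and in 33.8% of promoters. The patterns were chosen after the stretches had been seen, and a match is only a description of the letters.

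A library held 10709667 to 19491935 gene counts, with a median of 14935218.5, and the members together took from 0 to 0.190% of them. *Atad2* itself, counted over its whole length, was lower in KO in the labelled direction at every day, with a mean log2 difference of -1.37 ± 0.11 (SE, edgeR quasi-likelihood test, adjusted p = 1.23e-07). Over all days the *Atad2* level was 30.8 to 53.0 CPM in the KO libraries and 76.1 to 171 CPM in the WT libraries, where CPM stands for counts per 1000000 counts of the library's size after TMM scaling. The single-day difference passed at days 20, 22 and 24 and not at day 26 (adjusted p = 0.0628, edgeR). Round and elongating spermatid markers had rising summed levels from WT day 20 to day 26, although 2 of the 13 elongating markers were at 0 counts throughout WT day 20. The p-values measure the spread between these libraries. The methods call the samples biological replicates, but neither they nor the labels say that each came from a different animal.

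All 5 genes started near 0 in WT testis at day 20 and were high at day 26. *Prm1*, the more abundant of the main protamine messages in mouse, went from 0.250 ± 0.321 CPM (SD, n = 4) at day 20 to 0.487 ± 0.433 CPM (n = 4) at day 22, 40.7 ± 8.98 CPM (n = 2) at day 24 and 665 ± 395 CPM (n = 2) at day 26. The step from day 22 to day 24 was 83.5-fold on the means, and no WT library of day 24 overlapped day 22, while 18.3% of tested genes had every WT library of day 24 above every one of day 22. The rise of *Prm2* over the same days was 42.8-fold, that of *Tnp1* 34.1-fold and that of *Tnp2* 38.2-fold. *Prm3* followed a flatter course, from 1.07 ± 0.617 CPM (n = 4) at day 22 to 6.01 ± 1.68 CPM (n = 2) at day 24 and 15.1 ± 0.685 CPM (n = 2) at day 26. Its step from day 22 to day 24 was 5.63-fold. In edgeR's quasi-likelihood test with Benjamini-Hochberg adjustment over 17170 genes, all 5 members passed an adjusted p of 0.05 between WT days 22 and 24, where 5.88% of all genes were called higher. The log2 differences ran from 2.51 ± 0.72 for *Prm3* (SE, adjusted p = 0.0443) to 6.38 ± 1.35 for *Prm1* (adjusted p = 0.00965). Over 24 fits that each left out 1 library, *Prm1* passed in all 24 and *Prm3* in 7. The count of 5 fell to 2 without WT_d22_2, WT_d22_4 or WT_d24_2, to 3 without WT_d22_3 and to 1 without WT_d24_1.

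*Prm3* was the lowest member in WT at day 20, with 2 counts in all, and the only one called between days 20 and 22. At day 20 its counts were 0, 0, 1 and 1, and at day 22 they were 28, 9, 16 and 12, so every library of day 22 lay above every library of day 20, as for 13.2% of tested genes. The WT increase from day 20 to day 22 was at least 4.54-fold against a floor of 3 counts per library. It passed between these days (adjusted p = 0.0199, edgeR quasi-likelihood test), and 12.9% of all genes were called higher. That call was lost without WT_d22_1 (adjusted p = 0.0617). *Tnp1* was at 0, 0, 0 and 3 counts in the WT libraries of day 20 and at 16, 4, 13 and 7 counts at day 22. Its rise of at least 2.74-fold did not pass (adjusted p = 0.397), although the groups did not overlap. At day 22 every WT library was over 3 counts for *Tnp1*, *Tnp2* and *Prm3*, and at day 24 for all 5 members. *Prm1*, with 0, 1, 3 and 10 counts at day 20 and 16, 2, 6 and 6 at day 22, overlapped between these days.

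From WT day 24 to day 26 the means rose by 8.85-fold for *Tnp1*, 11.2-fold for *Tnp2*, 16.3-fold for *Prm1*, 14.3-fold for *Prm2* and 2.51-fold for *Prm3*. The 2 libraries of each day did not overlap for any member, and 26.6% of tested genes had both WT libraries of day 26 above both of day 24. None passed the adjusted test in edgeR, where 0.262% of genes were called higher, but 4 of the 5 (all but *Prm3*) had an unadjusted p under 0.05, as did 8% of all genes. DESeq2 run without its outlier filter also called 0 of 5, and 0.989% of all genes higher. The adjusted p-values were 0.249 to 0.768. The count depended on libraries outside the comparison. With only the 4 libraries compared 3 members passed (*Tnp2*, *Prm2* and *Prm3*), with 4.01% of genes called higher, and without KO_d22_2 and KO_d22_3 all but *Prm3* did, with 1.7% called higher. The WT libraries of day 26 themselves differed, with *Prm1* at 944 CPM in WT_d26_1 and 385 CPM in WT_d26_2, *Tnp1* at 263 and 125 CPM and *Tnp2* at 423 and 246 CPM, while *Prm3* was at 14.6 and 15.6 CPM.

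**Figure D1:**
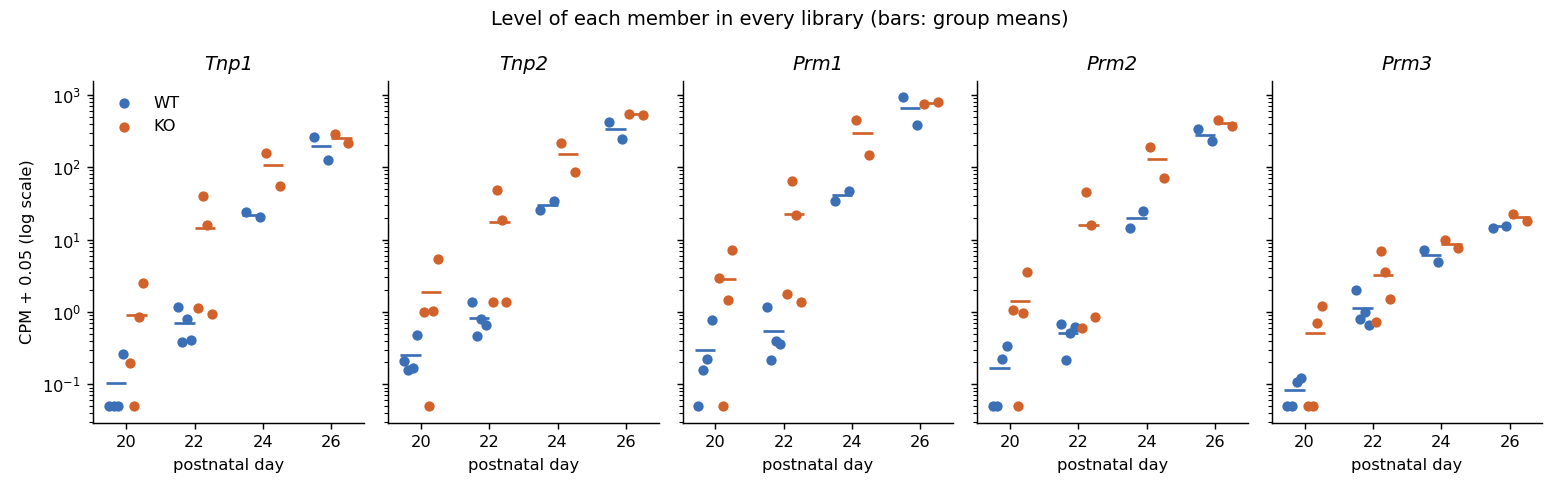
The level of each member in every library is plotted against postnatal day, as CPM plus 0.05 on a logarithmic axis, with WT in blue, KO in orange and a bar at each group mean. At day 22, KO_d22_2 and KO_d22_3 lie far above all WT libraries for *Tnp1*, *Tnp2*, *Prm1* and *Prm2*, and less far above them for *Prm3*. The other KO libraries of day 22 lie near WT, and at day 24 both KO libraries lie above both WT libraries for every member.

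The KO libraries held more of every member at day 20 on the means, but were very unequal. *Prm1* was at 2.90, 0, 1.39 and 7.04 CPM in KO_d20_1 to KO_d20_4, against 0, 0.105, 0.173 and 0.720 CPM in the WT libraries. *Prm2* was at 1.01, 0, 0.924 and 3.45 CPM in KO, against 0, 0, 0.173 and 0.288 CPM in WT. KO_d20_4 was the highest library of day 20 for all 5 members, and KO_d20_2 had no count of any. *Tnp2*, which binds DNA through zinc fingers, was at 0.943, 0, 0.990 and 5.35 CPM in KO and at 0.105 to 0.432 CPM in WT. *Tnp1* was at 0.145, 0, 0.792 and 2.44 CPM in KO, a mean at least 3.59-fold higher than the floor for WT, and *Prm3* at 0, 0, 0.660 and 1.15 CPM, at least 1.93-fold higher. No member separated the genotypes at day 20, whereas 3.03% of tested genes had every KO library above every WT library. None passed the adjusted test (edgeR quasi-likelihood, adjusted p from 0.362 for *Prm3* to 0.616 for *Tnp1*), against 2.98% of genes called higher. Within the libraries of day 20 only *Prm1* passed the filter on low counts. The others were tested here through their counts on other days, so their result at day 20 rests on few counts. Without adjustment 1 of the 5, *Prm3*, was under 0.05, as were 12.5% of all genes. DESeq2 without its outlier filter also called 0 of 5, and 4.2% of all genes higher.

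At day 22 *Prm1*, *Prm2*, *Tnp1* and *Tnp2* were higher in KO, through 2 of the 4 KO libraries. *Prm1* was at 1.69, 65.3, 21.5 and 1.34 CPM in KO_d22_1 to KO_d22_4 and at 1.13, 0.167, 0.349 and 0.307 CPM in the WT libraries. It was the only member with every KO library above every WT library, which held for 3.64% of tested genes. The mean was 46.1-fold higher in KO, and the log2 difference was 5.53 ± 1.28 (SE, adjusted p = 0.0302, edgeR quasi-likelihood test).

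*Prm2* was at 0.544, 45.3, 15.8 and 0.804 CPM in KO and at 0.634, 0.167, 0.466 and 0.562 CPM in WT, a log2 difference of 5.02 ± 1.19 (adjusted p = 0.0333, edgeR). *Tnp1*, the smaller of the transition proteins, was at 1.09, 40.3, 15.9 and 0.871 CPM in KO and at 1.13, 0.334, 0.757 and 0.358 CPM in WT, a difference of 4.50 ± 1.09 (adjusted p = 0.0365, edgeR). For both genes KO_d22_1 and KO_d22_4 lay within or just above the WT range. *Tnp2* was at 1.33, 48.1, 18.4 and 1.34 CPM in KO and at 1.34, 0.418, 0.757 and 0.614 CPM in WT, a difference of 4.46 ± 1.08 (adjusted p = 0.0368, edgeR). *Prm3* was at 0.665, 6.97, 3.49 and 1.47 CPM in KO and at 1.97, 0.752, 0.932 and 0.614 CPM in WT. Its difference of 1.58 ± 0.65 did not pass (adjusted p = 0.237, edgeR). In all, 4 of 5 members were called higher at day 22, against 1.26% of all genes.

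The 4 calls of day 22 depended on single libraries. Without KO_d22_2 none of the members passed, at 4.07 ± 1.15 for *Prm1* and 3.20 ± 0.99 for *Tnp1*. Without KO_d22_3 2 passed, with differences about as large as before, such as 4.45 ± 1.15 for *Tnp1*, and without any one of the 4 WT libraries of day 22 none passed. In these last fits the differences were about as large, at 5.30 to 6.27 for *Prm1* and 4.26 to 4.88 for *Tnp1*, with larger errors. With the replicate number as a block 1 of 5 passed, although nothing in the labels pairs the libraries by number. Without both KO_d22_2 and KO_d22_3, an alternative chosen after seeing the data, the log2 differences were 1.65 ± 1.15 for *Prm1*, 0.77 ± 0.94 for *Tnp2*, 0.62 ± 0.96 for *Tnp1*, 0.49 ± 1.05 for *Prm2* and 0.01 ± 0.68 for *Prm3*.

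**Figure D2:**
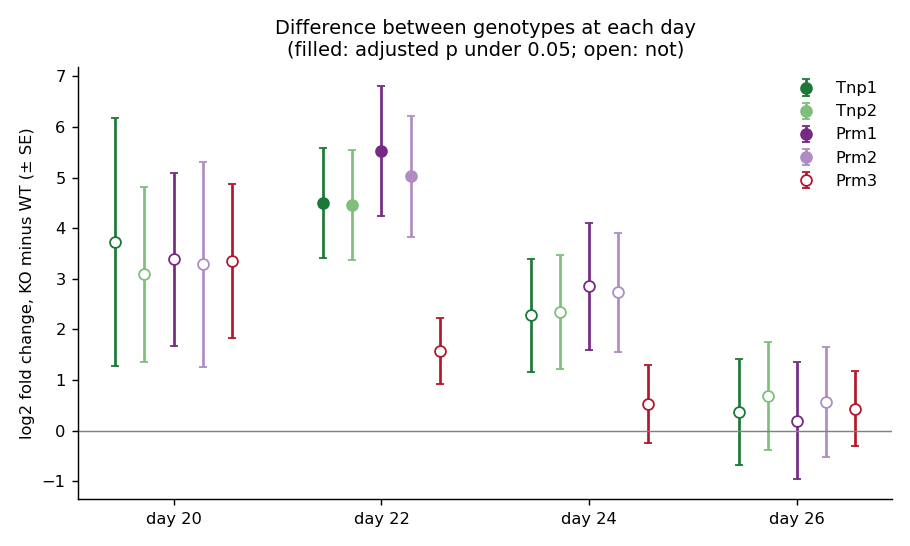
The log2 difference between KO and WT is plotted for each member at each day, with bars of 1 standard error, filled where the adjusted p was under 0.05 and open where it was not. The points of *Tnp1*, *Tnp2*, *Prm1* and *Prm2* at day 22, between 4.46 and 5.53, are the filled ones, and at day 26 all 5 lie between 0.20 and 0.68.

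At day 24 every KO library was above every WT library for all 5 members, which held for 22.6% of tested genes with 2 libraries a group. *Prm1* was at 443 and 146 CPM in KO and at 34.4 and 47.1 CPM in WT, a 7.24-fold difference of the means. *Prm2* was at 188 and 71.8 CPM in KO and at 14.3 and 24.8 CPM in WT, a 6.64-fold difference. *Tnp1* was at 159 and 54.9 CPM in KO and at 23.6 and 20.2 CPM in WT. The difference was 4.88-fold for *Tnp1*, 5.08-fold for *Tnp2*, with 219 and 84.4 CPM in KO and 25.7 and 33.9 CPM in WT, and 1.45-fold for *Prm3*, with 9.81 and 7.58 CPM in KO and 7.20 and 4.82 CPM in WT. The log2 differences of the first 4 lay between 2.28 ± 1.12 and 2.86 ± 1.25. No member passed the adjusted test in edgeR (adjusted p from 0.869 to 0.999967), where 0.0175% of genes were called higher. Without adjustment 2 of the 5, *Prm1* and *Prm2*, were under 0.05, as were 5.23% of all genes. DESeq2 without its outlier filter called 0 of 5 and 0.0521% of all genes higher.

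At day 26 the KO means were 1.15 to 1.61 times the WT means. *Prm1* was at 738 and 787 CPM in KO, between the WT values of 944 and 385 CPM. *Tnp1* also overlapped, with 282 and 216 CPM in KO and 263 and 125 CPM in WT. Without WT_d26_2 the log2 differences of *Prm1* and *Tnp1* turned negative, at -0.31 and -0.08. *Tnp2*, *Prm2* and *Prm3* had both KO libraries above both WT libraries, which held for 27.8% of tested genes. In KO the mean was 1.61-fold that of WT for *Tnp2*, 1.47-fold for *Prm2* and 1.35-fold for *Prm3*. The log2 differences ran from 0.20 ± 1.16 for *Prm1* to 0.68 ± 1.06 for *Tnp2*. In edgeR 0 of 5 passed, and 0% of all genes were called higher. None of the 5 had an unadjusted p under 0.05, while 11.5% of all genes did. DESeq2 without its outlier filter also called 0 of 5, while it called 69 of 16859 genes higher, or 0.409%. The width of these errors means that a difference of a few fold was not detectable here.

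Averaged over the 4 days, *Prm1*, *Prm2*, *Tnp1* and *Tnp2* were higher in KO by 2.99 ± 0.69, 2.90 ± 0.70, 2.72 ± 0.73 and 2.64 ± 0.63 on the log2 scale (SE, adjusted p = 0.0202, 0.0232, 0.0344 and 0.0230, edgeR), and 3.52% of all genes were called higher. *Prm3* was at 1.47 ± 0.49 and did not pass (adjusted p = 0.0741). The count of 4 members was 0 without KO_d24_1, WT_d24_2 or WT_d26_2, 1 without KO_d20_4, and 2 without KO_d26_2 or WT_d26_1. It was also 0 with the spermatid stage score, defined below, as a covariate. Whether the KO effect differed between the days was tested jointly, and 0 of 5 members passed (adjusted p from 0.596 to 0.880, edgeR, 0 with an unadjusted p under 0.05 and 0 in DESeq2 without its outlier filter), while 0.00582% of all genes passed in edgeR and 264 of 16859 in DESeq2 without that filter. In edgeR 9.06% of all genes had an unadjusted p under 0.05. The larger values of days 20 to 24 are thus not shown to differ from that of day 26.

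From KO day 20 to day 22 the log2 differences were 4.10 ± 1.05 for *Tnp1*, 3.54 ± 1.03 for *Prm2*, 3.25 ± 0.96 for *Tnp2*, 2.996 ± 1.01 for *Prm1* and 2.77 ± 0.73 for *Prm3*. All but *Prm1* passed (adjusted p = 0.0633 for *Prm1*, edgeR), where 7.37% of genes were called higher. The count of 4 was 0 without KO_d20_1, KO_d20_2 or KO_d22_2, 1 without KO_d20_3 and 2 without KO_d22_3. It was also 0 with the replicate number as a block and 0 with only the libraries compared. Without both KO_d22_2 and KO_d22_3 it was 0, and *Prm1*, *Prm2* and *Tnp2* turned negative.

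From KO day 22 to day 24 the means rose 7.35-fold for *Tnp1*, 8.76-fold for *Tnp2*, 13.1-fold for *Prm1*, 8.31-fold for *Prm2* and 2.76-fold for *Prm3*. No member overlapped, and 11.8% of tested genes had every KO library of day 24 above every one of day 22. No member passed in edgeR (adjusted p from 0.136 to 0.517), against 0.402% of genes called higher. All 5 had an unadjusted p under 0.05, as did 8.91% of all genes, and DESeq2 without its outlier filter called 0 of 5 and 0.518% of all genes higher. Without KO_d22_2 alone 4 passed, with 3.41% of genes called higher, and without both high libraries of KO day 22 all 5 did, with 4.6% called higher. From KO day 24 to day 26 the rise was 2.33-fold for *Tnp1*, 3.55-fold for *Tnp2*, 2.59-fold for *Prm1*, 3.19-fold for *Prm2* and 2.34-fold for *Prm3*. None passed in edgeR, where 0.0116% of genes were called higher. None had an unadjusted p under 0.05, while 20.1% of all genes did. DESeq2 without its outlier filter also called 0 of 5, while it called 740 of 13536 genes higher, or 5.47%.

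Set against the mean of WT day 26, the day 24 means were 44.3% to 57.7% in KO and 6.13% to 39.8% in WT. At day 22 *Prm1* stood at 3.38% in KO and 0.0733% in WT, and *Prm3* at 20.9% and 7.08%. The first day on which the group mean reached 10% of WT day 26 was day 24 in KO and day 26 in WT for *Tnp2*, *Prm1* and *Prm2*, day 24 in both genotypes for *Tnp1*, and day 22 in KO and day 24 in WT for *Prm3*. At a threshold of 1% the day was 22 in KO and 24 in WT for all but *Prm3*, which reached it at day 20 in KO and day 22 in WT. At 50% it was day 26 in WT for all 5, and in KO day 24 for *Tnp1* and *Prm3* and day 26 for the others. The KO day was earlier than the WT day, or the same, at each threshold, but single libraries carry these means. KO day 22 of *Prm1* fell from 3.38% to 1.23% without KO_d22_2, and without both KO_d22_2 and KO_d22_3 *Tnp1*, *Tnp2*, *Prm1* and *Prm2* lay between 0.228% and 0.505%, below the 1% threshold. *Prm3* then stood at 7.10%, below the 10% threshold. Without WT_d26_1 the 10% day of *Tnp2* and *Prm1* in WT was day 24, as in KO.

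KO libraries were also set against WT libraries taken 2 days later. KO day 20 differed from WT day 22 by 2.53 ± 1.47 on the log2 scale for *Prm1* and by -1.19 ± 0.81 for *Prm3*, with the others between 0.40 and 1.49. KO day 22 differed from WT day 24 by -0.32 ± 0.98 for *Prm2* to -0.93 ± 0.67 for *Prm3*. No member passed either comparison in edgeR (0 with an unadjusted p under 0.05, 0 in DESeq2 without its outlier filter), where 0.122% and 0.0466% of genes were called higher and 0.798% and 0.711% lower. Of all genes, 16.6% and 13.4% had an unadjusted p under 0.05. In the second comparison the 4 KO libraries lay on both sides of WT. For *Tnp1*, KO_d22_2 at 40.3 CPM was above the 23.6 and 20.2 CPM of WT day 24, KO_d22_3 at 15.9 CPM was just below, and KO_d22_1 and KO_d22_4 at 1.09 and 0.871 CPM were far below. Without both high libraries of KO day 22, all 5 members passed as lower than in WT day 24, where 4.63% of genes were called lower.

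The members moved with the spermatid markers of the same libraries. In bulk testis RNA, fewer cells of a type and less RNA per cell cannot be told apart. A stage score was taken as the mean centred log2 level of 14 round spermatid markers, which include the acrosomal genes *Acrv1* and *Spaca1*, minus that of 12 pachytene markers such as *Sycp3* and *Pgk2*. At day 22 the score was 0.11, 1.65, 1.08 and 0.27 in KO_d22_1 to KO_d22_4 and -0.19, -0.76, -0.44 and -0.65 in the WT libraries, so that the KO libraries highest in the members were also highest in the score. At day 20 it ran from -2.87 to 0.48 in KO, lowest in KO_d20_2 and highest in KO_d20_4, and from -3.84 to -2.50 in WT. In the round spermatid list, 13 of 14 genes were called higher in KO at day 20 and 2 of 14 at day 22, beside 2.98% and 1.26% of all genes. The list's median log2 difference was 3.67 at day 20 (3.28 with the 2 genes at the floor in WT set at their bound) and 1.26 at day 22, beside 0.00 and 0.01 over all genes.

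With the stage score as a covariate no member was called in any comparison of KO with WT on the same day, or in the mean of the 4 days. In that mean the differences became -0.99 for *Tnp1*, -0.23 for *Tnp2*, -0.06 for *Prm2* and -0.61 for *Prm3*, while *Prm1* did not change sign. The day 22 differences became -0.89 ± 0.65 for *Tnp1* and -1.32 ± 0.36 for *Prm3*, and stayed positive at 2.14 ± 1.34 for *Prm1*, 0.56 ± 1.32 for *Prm2* and 0.20 ± 0.99 for *Tnp2*. At day 20 all 5 turned negative, from -1.70 to -5.87. At day 24 they stayed positive, at 1.75 ± 0.37 for *Tnp1* (adjusted p = 0.0561, edgeR), 1.87 ± 0.54 for *Tnp2*, 2.49 ± 0.86 for *Prm1*, 2.21 ± 0.69 for *Prm2* and 0.31 ± 0.27 for *Prm3*. At day 26 they lay between 0.61 for *Prm1* and 1.20 for *Tnp2*. The score and the genotype overlap in part in this design, so a fit with both cannot tell their shares apart.

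At day 24 the stage score did not separate the genotypes, with 1.95 and 1.83 in KO and 1.92 and 1.61 in WT, while the members did. The 13 elongating spermatid markers, which include the fibrous sheath gene *Akap4* and the outer dense fibre gene *Odf1*, had mean centred log2 levels of 3.01 and 2.39 in KO and 1.91 and 1.88 in WT at that day. KO_d24_1, the higher in these markers, was the higher in all 5 members. The summed level of the 13 genes was 926.5 to 1281 CPM in KO and 708 to 911 CPM in WT at day 24. There 0 of 13 were called, beside 0.0175% of all genes called higher. Called higher in KO were 7 of 13 at day 20, 2 at day 22 and 9 in the mean of the 4 days. The shares of all genes called higher were 2.98%, 1.26% and 3.52%. KO_d22_2, with a stage score of 1.65 and an elongating level of 2.10, came close to the WT libraries of day 24 in both, and its *Prm1*, at 65.3 CPM, stood beside 34.4 and 47.1 CPM there. The part that cell composition has in the genotype difference of the members was not tested beyond these values.

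**Figure D3:**
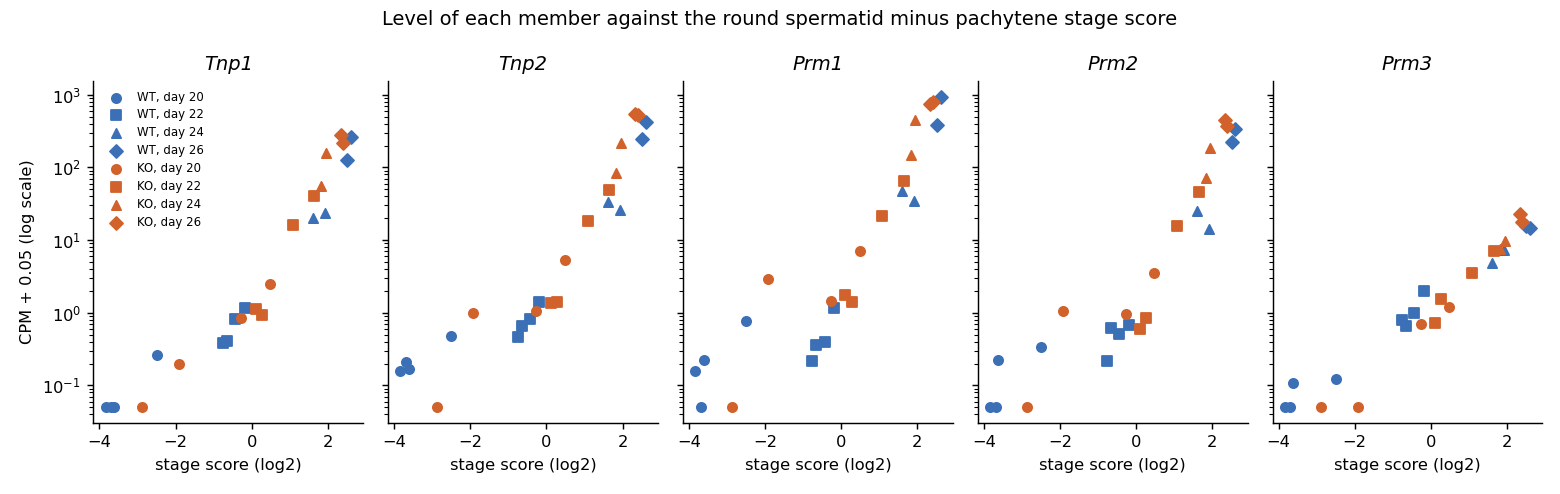
The level of each member, as CPM plus 0.05 on a logarithmic axis, is plotted against the stage score of the library, a difference of mean log2 marker levels, with the genotype as colour and the day as symbol. Above a score of 0 the members rise steeply in both genotypes, and at scores near 1.6 to 1.9 the KO libraries of day 24 lie above the WT libraries of day 24.

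Markers of other cell types were summed in the same way. Summed Sertoli cell markers (7 genes) were at 1046 to 1761 CPM in KO and 1119 to 1409 CPM in WT at day 22, and spermatogonial markers (7 genes) at 180 to 219 and 186 to 226 CPM. Peritubular markers (5 genes) were at 250.5 to 513.6 CPM in KO and 495 to 731 CPM in WT at day 22, and Leydig cell markers (6 genes) at 387 to 921 and 612 to 774 CPM. Epididymal genes (4 of 5 with counts), which mark sperm duct tissue taken with the testis, ran from 0 to 131 CPM in KO and 0 to 545 CPM in WT at day 22. Of the blood list only *Alas2* had counts, the 4 globin genes being at 0 in every library. Of these lists none had a gene called at day 22, and in the mean of the 4 days 2 peritubular genes were called lower and 1 Leydig cell gene higher in KO, beside 3.56% of all genes called lower and 3.52% higher. At day 24, where the members separated the genotypes, the Leydig cell sum was 889 to 1055 CPM in KO and 501 to 702 CPM in WT, and the peritubular sum 437 to 441 and 495 to 551 CPM. At day 26 the KO libraries were above WT in the sums of pachytene (9223 to 9439 against 7070.1 to 7779 CPM), round spermatid, elongating spermatid and Sertoli cell markers. They were below WT there in those of peritubular (269.6 to 312 against 362 to 436 CPM), Leydig cell and spermatogonial markers. By the mean centred log2 level of the same genes the Sertoli and Leydig cell markers overlapped at day 26, with Sertoli levels of -0.35 and -0.48 in KO and -0.21 and -0.39 in WT. Their part in the results was not tested.

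The shares of the members differed between ages. Levels were compared per kilobase of exon, with lengths of 437 bases for *Tnp1*, 554 for *Tnp2*, 469 for *Prm1*, 621 for *Prm2* and 410 for *Prm3*, lengths near those of a sequenced fragment, so the values are approximate. At day 26 the order in both genotypes was *Prm1*, *Tnp2*, *Prm2*, *Tnp1* and *Prm3*, with 1417, 604, 452, 444 and 36.8 CPM per kilobase in WT and 1626, 970, 666, 571 and 49.6 CPM per kilobase in KO. *Prm2* and *Tnp1* of WT were in opposite order in the 2 libraries, at 539 and 602 CPM per kilobase in WT_d26_1 and 364 and 286 in WT_d26_2. The other neighbours in the order had the same order in both libraries of each genotype. Shares were taken from raw counts summed over the libraries of a group, so deeper libraries weigh more. *Prm1* gave 48.4% of the members' transcripts per length in WT and 42.1% in KO. By library it was 50.9% in WT_d26_1, 42.0% in WT_d26_2 and 39.5% and 44.4% in KO, so that the genotypes overlapped. *Prm3* gave 1.20% in WT and 1.27% in KO, or 0.900% and 1.94% in the WT libraries and 1.39% and 1.16% in the KO libraries. At WT day 22, in 214 counts in all, *Prm3* was the first of the 5 with 35.2%, followed by *Tnp1* with 20.3% and *Tnp2* with 19.6%, and *Prm1* gave 14.2%. In KO of the same day, in 4744 counts, *Prm1* gave 33.0% and *Prm3* 5.23%, beside 36.5% and 6.27% in WT day 24. KO_d22_2 with 3427 and KO_d22_3 with 1142 counts gave most of that pool. Without KO_d22_2 the shares were 30.3% for *Prm1* and 7.96% for *Prm3*, and without both they were 28.2% and 22.1%, on 175 counts. In KO_d22_4 *Prm3* was first with 29.6%, and in KO_d22_1 *Prm1* was first with 32.8% and *Prm3* had 14.7%.

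Ratios within single libraries are given next, as ratios chosen after their values were seen and therefore given without a test. At day 22 the log2 ratio of *Prm3* to *Prm1* counts per kilobase, with 0.5 count added to each gene, was 0.98, 2.12, 1.54 and 1.14 in WT and -1.12, -3.03, -2.42 and 0.33 in KO. The genotypes did not overlap, and KO_d22_1 and KO_d22_4, near WT in level, were below WT in this ratio. The WT values rest on *Prm1* counts of 16, 2, 6 and 6. At day 20 the ratio overlapped, from -2.61 to 0.19 in WT and from -6.15 to 0.19 in KO. In WT its mean fell with age, from 1.44 at day 22 to -5.13 at day 26. How many other pairs of genes separate the genotypes in this way was not tested. The ratio of *Prm1* to *Tnp1* was -0.10, -0.95, -1.16 and -0.31 in WT and 0.52, 0.59, 0.33 and 0.50 in KO, again without overlap, on WT counts of 2 to 16 a gene. At day 24 the *Prm3* ratio was -2.06 and -3.08 in WT and -5.30 and -4.07 in KO, and at day 26 -5.82 and -4.43 in WT overlapped -4.83 and -5.26 in KO.

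The ratio of *Tnp2* to *Tnp1* was between -0.34 and 0.39 in the WT libraries of day 22 and between -0.13 and 0.26 in KO, and at day 26 between 0.34 and 0.64 in WT and between 0.61 and 0.95 in KO. At day 20, on few counts, it ran from 0.55 to 1.98 in WT and from -0.34 to 2.09 in KO. The ratio of *Prm2* to *Prm1* ran from -1.20 to 0.42 in WT and from -1.99 to -0.85 in KO at day 22. At day 24 it was between -1.67 and -1.33 in WT and between -1.64 and -1.43 in KO, so that *Prm1* was the more abundant per length in all 4 libraries. The genotypes overlapped in each of these sets.

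**Figure D4:**
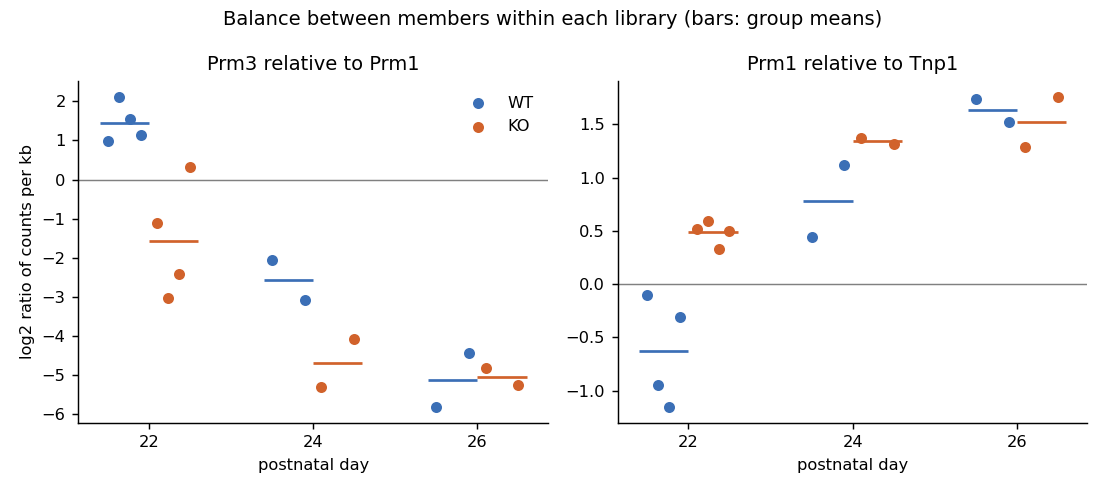
The log2 ratio of counts per kilobase is plotted for each library of days 22, 24 and 26, with *Prm3* relative to *Prm1* on the left and *Prm1* relative to *Tnp1* on the right, WT in blue, KO in orange and a bar at each group mean. At day 22 all KO libraries lie below all WT libraries on the left, and above them on the right, and at day 26 the genotypes overlap in both.

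Over the 24 libraries the log2 levels of *Tnp1*, *Tnp2*, *Prm1* and *Prm2* had pairwise Pearson correlations of 0.981 to 0.996, and those of *Prm3* with them ran from 0.913 with *Prm1* to 0.966 with *Tnp1*. After the group means had been taken away the values were 0.908 to 0.970 among the first 4, and 0.737 to 0.883 with *Prm3*. All points share the course of age and each library's cell composition, so these are descriptions. The non-member genes with the highest mean correlation were *Pmis2*, *Cabs1*, *Tppp2*, *Spata31d1b* and *4930407I10Rik*, all with a mean of 0.979 over the 5 members. The ranking is unstable, since 1 of the 5 remained with Spearman's correlation, 2 with the deviations from group means, and 1 to 5 when single libraries were left out. *Cabs1*, which encodes a calcium-binding protein of the sperm tail, rose from 0.599 CPM in WT day 22 to 25.5 CPM in WT day 24. In KO day 22 it stood at 1.75, 37.1, 12.7 and 1.81 CPM, with the same high libraries as the members (log2 difference 4.45 ± 0.93, adjusted p = 0.0192, edgeR). *Cabs1* was picked for its correlation with the members over these same libraries, so this likeness was largely set by that choice. Without KO_d22_2 the difference was 3.14 ± 0.77 (adjusted p = 0.0774, edgeR), and without both high libraries 1.55 ± 0.73.

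None of the neighbouring genes outside the cluster on chromosome 16 was called in KO against WT (edgeR, 0 with an unadjusted p under 0.05). On single days 5.23% to 14.6% of all genes had an unadjusted p under 0.05. *Socs1*, an inhibitor of cytokine signalling, was between 2.07 and 3.23 CPM in the mean of every group. Its KO minus WT differences were between -0.32 and 0.32 on the log2 scale with adjusted p from 0.742 to 0.999967 (edgeR). *Rmi2*, of the complex that resolves crossed DNA strands, had 0.31 ± 0.18 at day 20 and 0.29 ± 0.18 at day 22 (adjusted p = 0.549 and 0.534, edgeR). *Clec16a* was within 0.16 of 0 at every day.

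Among chromatin partners of the transition proteins and protamines (20 genes listed, 19 in the tables, 17 tested), 1 was called higher in KO at day 20, when 2.98% of all genes were, and 4 at day 22, when 1.26% were, none was lower, and none was called at days 24 and 26. The list's median log2 difference was 0.45 at day 22, beside 0.01 over all genes, and 0.32 with the gene at the floor in WT set at its bound. At day 20 it was 0.04, or 0.02 with the 3 genes at the floor in WT set at their bounds, beside 0.00 over all genes. The 1 call of day 20 is not a result about the list. *H1fnt* and *Hils1* are also among the elongating spermatid markers. *H1fnt*, a linker histone of elongating spermatids, had 0 counts in all WT libraries of day 20 and 3 to 41 counts in KO. At day 22 it was at 2.24, 28.8, 10.9 and 4.16 CPM in KO_d22_1 to KO_d22_4 and at 0.585 to 1.48 CPM in WT, a log2 difference of 3.73 ± 0.77 (adjusted p = 0.0214, edgeR). The groups did not overlap, and KO_d22_2 and KO_d22_3 were again the highest. *H2afb1*, the name in the tables for *H2al2a*, which encodes an H2A variant that opens nucleosomes to transition proteins, was at 0.605, 8.23, 3.95 and 0.603 CPM in KO and at 0.0836 to 0.282 CPM in WT at day 22 (4.47 ± 0.95, adjusted p = 0.0199, edgeR).

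*Tssk6*, a kinase needed for condensing the spermatid nucleus, was higher in KO by 2.32 ± 0.59 at day 22 (adjusted p = 0.0417, edgeR), and *Camk4*, a kinase that phosphorylates protamine 2, by 1.21 ± 0.29 (adjusted p = 0.0302). *Nutm1*, which brings the histone acetyltransferase p300 to spermatid chromatin, was the gene called at day 20 (1.27 ± 0.29, adjusted p = 0.0166, edgeR). *Hils1*, another linker histone of spermatids, had 3.16 ± 0.92 at day 20 and 1.56 ± 0.60 at day 22, without passing at either (adjusted p = 0.0738 and 0.201), and passed in the mean of the 4 days with *H1fnt*, *H2afb1* and *Tssk6*, 4 of the 17 genes beside 3.52% of all genes. The day 22 calls of *H1fnt*, *H2afb1*, *Tssk6* and *Camk4* were lost without KO_d22_2 (adjusted p from 0.0711 to 0.253, edgeR), and those of *Tssk6* and *Camk4* also without KO_d22_3, at 2.34 ± 0.64 and 1.03 ± 0.30. Without both libraries, chosen after seeing the data, the log2 differences were 1.87 ± 0.61 for *H1fnt*, 2.01 ± 0.88 for *H2afb1*, 0.74 ± 0.54 for *Tssk6* and 0.43 ± 0.27 for *Camk4*.

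Of 15 transcription regulators of spermatid genes, all tested, 1 was called higher at day 20 and 1 at day 22, and none lower, beside 2.98% and 1.26% of all genes called higher. With so few genes, 1 call is not a result about the list. *Spz1*, a basic helix-loop-helix factor, was at 14.2 ± 12.2 CPM (SD, n = 4) in KO and 1.77 ± 0.691 CPM (n = 4) in WT at day 20 (log2 difference 2.97 ± 0.64 SE, adjusted p = 0.0138, edgeR). *Fhl5*, the coactivator of CREM also known as ACT, was at 6.29, 30.3, 15.4 and 4.02 CPM in KO and at 2.10 to 4.29 CPM in WT at day 22 (2.30 ± 0.53, adjusted p = 0.0293, edgeR). Without KO_d22_2 it did not pass (1.58 ± 0.46, adjusted p = 0.137, edgeR). *Zmynd15*, a corepressor whose loss lets haploid genes come on too early, had 0.97 ± 0.29 at day 20 (adjusted p = 0.0807) and -0.05 ± 0.28 at day 22. The list's median was 0.26 at day 20 and 0.10 at day 22.

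Of 16 genes for storing and translating such messages, all tested, none was called on any single day in edgeR, where 2.98% of all genes were called higher at day 20 and 1.26% at day 22. The median difference was 0.12 at day 20 and 0.05 at day 22. *Patl2*, a translational repressor first known from oocytes, was the 1 gene called in the mean of the 4 days (0.53 ± 0.16, adjusted p = 0.0435, edgeR), when 3.52% of all genes were called higher, so that 1 of 16 is not a result about the list. *Piwil1*, *Ddx4* and *Tdrd6*, of the germ cell RNA granules, were within 0.38 of 0 at each day.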

How the data were processed

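Raw counts per gene were deposited, 1 table per library. The authors aligned the read pairs of stranded, ribosome-depleted total RNA to mm10 with STAR 2.7.11b and counted them in genes with HTSeq by strand, per the labels and methods. The gene models are not given in the sources used here. The 5 tallies of unassigned pairs stayed out of library sizes (45.1% to 58.5% of pairs had no feature, 4.74% to 13.7% several alignments). Counts were scaled by TMM and tested with edgeR 4.0.16 (R 4.3.3; filterByExpr, minimum count 10, robust quasi-likelihood fit of 8 groups over 24 libraries, two-sided, Benjamini-Hochberg over 17170 genes, called at 0.05). The standard error is the log2 difference over the square root of F. The procedure was checked on simulated data. DESeq2 1.42.0, RLE factors, no filter, a fit without robust, a stage score, a replicate block, only the compared libraries and single libraries left out were alternatives. Figures used matplotlib 3.10.9. The members and lists were chosen with earlier results of these data known. Named genes were the members, *Atad2*, listed genes called in KO against WT or, in each list, the 2 with the smallest p at days 20 and 22, the 5 genes most alike, and neighbours. The methods give 3 replicates at day 20 and the labels 4, and all 4 were used. No label pairs libraries by replicate number, and the correlations of same-numbered deviations were 0.07 to 0.41 at day 20, -0.46 to -0.03 at day 22, 0.39 at day 24 and 0.42 at day 26, so that not every pair was over 0.1.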

Additional observations from a re-analysis of the deposited data

Results flagged for a closer look

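In the WT libraries of day 20, WT_d20_4 stood apart from the other 3 for both transition proteins. *Tnp1* was at 0.216 CPM there, from 3 counts, and at 0 in the others. *Tnp2* was at 0.432 CPM there, from 6 counts, and at 0.105 to 0.157 CPM in the others. Both rest on counts near the floor of 3. In continuous values such a gap appears by chance in about 1 of 20 groups of 4, of which 20 were examined. That rate does not hold at these counts, since 0 in all libraries but 1 always gives such a gap. WT_d20_4 was also the WT library of day 20 with the highest stage score, -2.50 against -3.84 to -3.62.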

How the results depend on the processing

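Of the members, the number called was recomputed under each alternative. For KO against WT at day 22, where 4 of 5 were called, it was 2 with no filter on low counts, 0 with the stage score as covariate, 1 with the replicate block, 0 with only the libraries compared (*Prm2* was filtered there) and 0 without both KO_d22_2 and KO_d22_3, and 0 to 4 over the 24 fits that each left out 1 library. Of the comparisons, WT day 22 against day 20 could not be run with only the libraries compared, since all 5 members were filtered. In the mean of the 4 days it was 0 with the stage score, and 0 to 5 with 1 library left out. With the stage score it was also 0 for WT day 22 against day 20 (1 before), 0 for WT day 24 against day 22 (5), 0 for KO day 22 against day 20 (4) and 1 for KO day 20 against WT day 22 (0). The replicate block gave 1 for WT day 24 against day 22 and 0 for KO day 22 against day 20, and moved no other count by over 1.5 times. With only the libraries compared it was 3 for WT and 1 for KO day 26 against day 24, and 0 for KO day 22 against day 20. Without both high KO libraries of day 22 it was 4 for WT day 26 against day 24, 0 for KO day 22 against day 20, and 5 for both KO day 24 against day 22 and KO day 22 against WT day 24. With 1 library left out the count was 0 to 1 for WT day 22 against day 20, 1 to 5 for WT day 24 against day 22, 0 to 5 for KO day 22 against day 20 and 0 to 4 for KO day 24 against day 22. DESeq2 as it comes gave no p-value for *Tnp1*, *Tnp2*, *Prm1* and *Prm2* in any of the 14 comparisons, and without its outlier filter, chosen after seeing the data, 64 of 65 differences kept their direction and call. RLE size factors kept all 65. The cause of these shifts was not tested, and fits on fewer libraries also have fewer degrees of freedom.

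With the stage score as covariate, the log2 difference changed sign in these cases: in KO against WT at day 20 *Tnp1* -5.87, *Tnp2* -4.21, *Prm1* -1.70, *Prm2* -4.09 and *Prm3* -2.23, in KO against WT at day 22 *Tnp1* -0.89 and *Prm3* -1.32, in KO against WT in the mean of the 4 days *Tnp1* -0.99, *Tnp2* -0.23, *Prm2* -0.0599 and *Prm3* -0.61. It also did so in WT day 22 against day 20 *Tnp1* -5.07, *Tnp2* -4.82, *Prm1* -4.36, *Prm2* -5.01 and *Prm3* -0.73, in WT day 24 against day 22 *Tnp1* -2.18, *Tnp2* -0.32, *Prm2* -0.33 and *Prm3* -1.85, in WT day 26 against day 24 *Prm3* -0.19. Further changes of sign came in KO day 22 against day 20 *Tnp1* -0.0894, *Tnp2* -0.41, *Prm1* -0.52 and *Prm2* -0.37, in KO day 24 against day 22 *Prm3* -0.23, in KO day 26 against day 24 *Tnp1* -0.26. The last were in KO day 20 against WT day 22 *Tnp1* -0.80, in KO day 22 against WT day 24 *Tnp1* 1.29, *Tnp2* 0.52, *Prm1* 0.0128, *Prm2* 0.89 and *Prm3* 0.54. Without WT_d26 replicate 2, in KO against WT at day 26, it became *Tnp1* -0.0769 and *Prm1* -0.31, and over the single libraries left out these ran up to 1.006 and 0.996. Without KO_d22 replicates 2 and 3, in KO day 22 against day 20, it became *Tnp2* -0.44, *Prm1* -0.88 and *Prm2* -0.996. Without KO_d20 replicate 4, in KO day 20 against WT day 22, it became *Tnp1* -0.997 and *Tnp2* -0.29, with values up to 0.83 and 1.64 over the other omissions. In KO day 22 against WT day 24, *Prm2* was 0.09 without KO_d22_1, 0.08 without KO_d22_4 and 0.17 without WT_d24_2, and -1.78 at the lowest, without KO_d22_2.

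The planned CPM alternatives moved group means by more than 1 SD in 5 cases, all at day 26, and leaving out WT_d26_1 moved the onset at 10% to day 22 for *Tnp1* in KO and to day 24 for *Tnp2* and *Prm1* in WT. Without WT_d24_1 it was day 24 for *Tnp2* in WT, and without WT_d26_2 day 26 for *Tnp1* in WT. Depth limits days 20 and 22 in WT, where 3 counts equal about 0.235 and 0.198 CPM.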
